A study of Mus musculus with 30 samples.

Results

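Tumours treated with mXTX301, a masked form of interleukin-12 (IL-12) made for mice, were compared directly with tumours treated with an unmasked positive control, 4 days after a single intravenous injection. The 10 libraries compared, 5 per drug, were taken by treatment and day from the labels, out of 30 libraries in the series. Mice given mXTX301 received 0.39 mg/kg and mice given the unmasked control received 0.03 mg/kg. The 5 vehicle libraries of day 4 served as the background for both drugs, and the 10 day 7 libraries of the drugs were used to ask whether the difference changed with time. All groups were 10-week-old female C57BL/6J mice that carried a subcutaneous tumour grown from injected MC38 cells, a mouse colon carcinoma line, and were treated when tumours measured 200 to 300 mm3. The strain is immunocompetent. The doses differed between the drugs, so masking and dose cannot be told apart, and each drug was given at a single dose. In bulk tumour RNA, fewer cells of a type and less RNA per cell cannot be told apart.

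IL-12 is a cytokine of dendritic cells and macrophages that binds the receptor chains encoded by Il12rb1 and Il12rb2 on T cells and natural killer (NK) cells, signals through the kinases Jak2 and Tyk2 and the transcription factor Stat4, and drives these cells to make interferon-gamma. Interferon-gamma acts on tumour, myeloid and vessel cells through transcription factors such as Irf1, and switches on guanylate-binding proteins, chemokines and the antigen presentation machinery. Masked cytokines of this kind carry a domain that blocks receptor binding until proteases remove it.

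Irf1, Gbp2b, Gbp2 and Socs1 are output genes of this pathway that passed the test against vehicle with both drugs and did not pass it between the drugs. Their promoter windows are shown as reference sequence, in which the response of these tumours was not measured. Irf1 and Socs1 encode a transcription factor and a feedback inhibitor, and Gbp2b and Gbp2 encode guanylate-binding proteins. The windows are RefSeq sequence of GRCm38.p6, run from 250 bases before to 50 bases after the annotated start, and lie at chr11:53769764-53770063 (plus strand), chr3:142594597-142594896 (plus), chr3:142620413-142620712 (plus) and chr16:10785487-10785786 (minus). Capitals mark TTCNNNGAA, the interferon-gamma activated site, and GAAANNGAAA or its reverse complement TTTCNNTTTC, the core of the interferon-stimulated response element.
Irf1: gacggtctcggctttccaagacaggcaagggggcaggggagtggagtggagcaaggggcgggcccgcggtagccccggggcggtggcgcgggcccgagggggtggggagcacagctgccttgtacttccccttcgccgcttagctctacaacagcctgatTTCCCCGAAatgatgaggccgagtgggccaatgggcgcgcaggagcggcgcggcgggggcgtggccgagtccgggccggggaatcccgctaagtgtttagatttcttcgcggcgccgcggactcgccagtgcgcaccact
Gbp2b: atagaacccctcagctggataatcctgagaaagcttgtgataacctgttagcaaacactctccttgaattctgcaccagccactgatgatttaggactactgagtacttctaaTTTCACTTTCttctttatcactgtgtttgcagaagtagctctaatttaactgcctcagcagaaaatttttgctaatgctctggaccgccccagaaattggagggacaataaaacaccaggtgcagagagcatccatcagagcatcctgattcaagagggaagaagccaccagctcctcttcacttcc
Gbp2: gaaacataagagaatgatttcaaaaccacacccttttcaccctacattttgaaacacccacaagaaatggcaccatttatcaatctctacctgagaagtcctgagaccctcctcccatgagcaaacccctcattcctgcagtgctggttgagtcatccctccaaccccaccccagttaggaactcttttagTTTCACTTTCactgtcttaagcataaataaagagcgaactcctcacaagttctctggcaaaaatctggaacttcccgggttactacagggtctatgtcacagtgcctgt
Socs1: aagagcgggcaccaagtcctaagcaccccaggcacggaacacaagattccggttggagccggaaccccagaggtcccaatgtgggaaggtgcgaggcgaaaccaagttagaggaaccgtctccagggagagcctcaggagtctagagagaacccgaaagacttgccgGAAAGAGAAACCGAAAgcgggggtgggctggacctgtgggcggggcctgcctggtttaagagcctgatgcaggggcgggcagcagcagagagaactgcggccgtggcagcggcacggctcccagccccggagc
The Irf1 window held the first motif as TTCCCCGAA, both Gbp windows held the second as TTTCACTTTC, and the Socs1 window held the second in the overlapping copies GAAAGAGAAA and GAAACCGAAA. A further annotated start of Irf1 held neither motif in its window. Searched on both strands, the first motif was in 8.3% and the second in 3.44% of 32851 promoter windows of the same length. A match is a description of the sequence and not a measured binding site.

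No gene passed the test between the drugs. Of 15482 genes tested with the edgeR quasi-likelihood test in a fit of all 30 libraries, 0 were higher and 0 lower with mXTX301 than with the unmasked control at an adjusted p under 0.05 (0% called), and the smallest adjusted p was 0.0954. At an unadjusted p under 0.05, 982 genes were higher and 1110 lower (6.34% and 7.17% of those tested). The 95% interval of the log2 fold change lay within 2-fold either way for 11946 genes (77.2%) and within 1.5-fold for 9921 genes (64.1%). The median log2 fold change over all genes was 0.01. All 5 mXTX301 libraries lay above all 5 unmasked libraries in 371 genes (2.40%) and below them in 533 genes (3.44%), 5.84% of genes in all.

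The calls depended on the model. DESeq2 in the same 30 libraries called 12 genes higher and 12 lower (0.182% of 13200), and edgeR fitted to the 10 libraries alone called 89 higher and 105 lower (1.35% of 14328), of which 182 differed by less than 1.5-fold and 5 by at least 2-fold. The calls of these alternatives had 14 genes in common. The fit of 10 libraries was unstable: leaving out each library in turn gave between 0 and 197 genes higher and between 0 and 217 lower.

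Each drug differed widely from vehicle. With mXTX301, 2505 genes were higher and 2477 lower than in vehicle tumours (16.2% and 16.0% of 15482), of which 618 and 89 changed at least 2-fold. With the unmasked control, 1800 were higher and 1665 lower (11.6% and 10.8%), of which 455 and 210 changed at least 2-fold. These 2 comparisons share the vehicle libraries, so their values are given side by side without a measure of overlap.

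Total counts ranged from 48.8 to 65.5 M reads in the mXTX301 libraries, from 52.5 to 85.2 M in the unmasked libraries and from 50.2 to 64.6 M in the vehicle libraries of day 4. Levels are in CPM, read counts scaled to a common library total after TMM normalization, which are comparable between libraries but not between genes of different length. Skin genes stood apart in mXTX301 replicate 3 and unmasked replicate 5, with summed levels of the skin epithelium list of 409 and 710 CPM, against 14.7 to 19.4 CPM in the other mXTX301 libraries and 14.7 to 57.0 CPM in the other unmasked libraries. Vehicle libraries had 15.7 to 167 CPM. Krt5, a basal keratinocyte keratin, was at 40.1 CPM in mXTX301 replicate 3 and 87.5 CPM in unmasked replicate 5, and was at 0 in 3 other mXTX301 libraries. Values without the libraries rich in skin genes, those over 10 times the median skin level, are given beside the genes and lists that they moved most. That setting left out both libraries above and 3 sets of day 7. These were vehicle replicate 5, mXTX301 replicates 1 and 3, and unmasked replicates 3 and 5 of day 7. Of the epithelial and MC38 tumour markers, 11 of 16 were tested (Krt8, Krt18, Cldn3, Cldn7 and Cdx2 did not reach the low-count filter), and their summed level was 5.42 to 13.9 CPM with mXTX301, 5.16 to 14.7 CPM with the unmasked control and 5.26 to 7.75 CPM in vehicle tumours. Epcam, the defining epithelial marker, averaged 0.294 CPM with mXTX301, 0.443 CPM with the unmasked control and 0.131 CPM in vehicle tumours, near 0 in each group.

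A panel of 33 genes covered the IL-12 axis, the interferon-gamma response and the main cell types. None of the 33 passed the test between the drugs, 3 had an unadjusted p under 0.05 (Kdr, Aplnr and Mest), and the interval lay within 2-fold for 18. Against vehicle, 21 of the 33 rose and 3 fell with mXTX301, and 23 rose and 3 fell with the unmasked control. Of all genes, 16.2% rose and 16.0% fell with mXTX301, and 11.6% rose and 10.8% fell with the unmasked control. The panel counts that fell are no higher than that background.

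**Figure D1:**
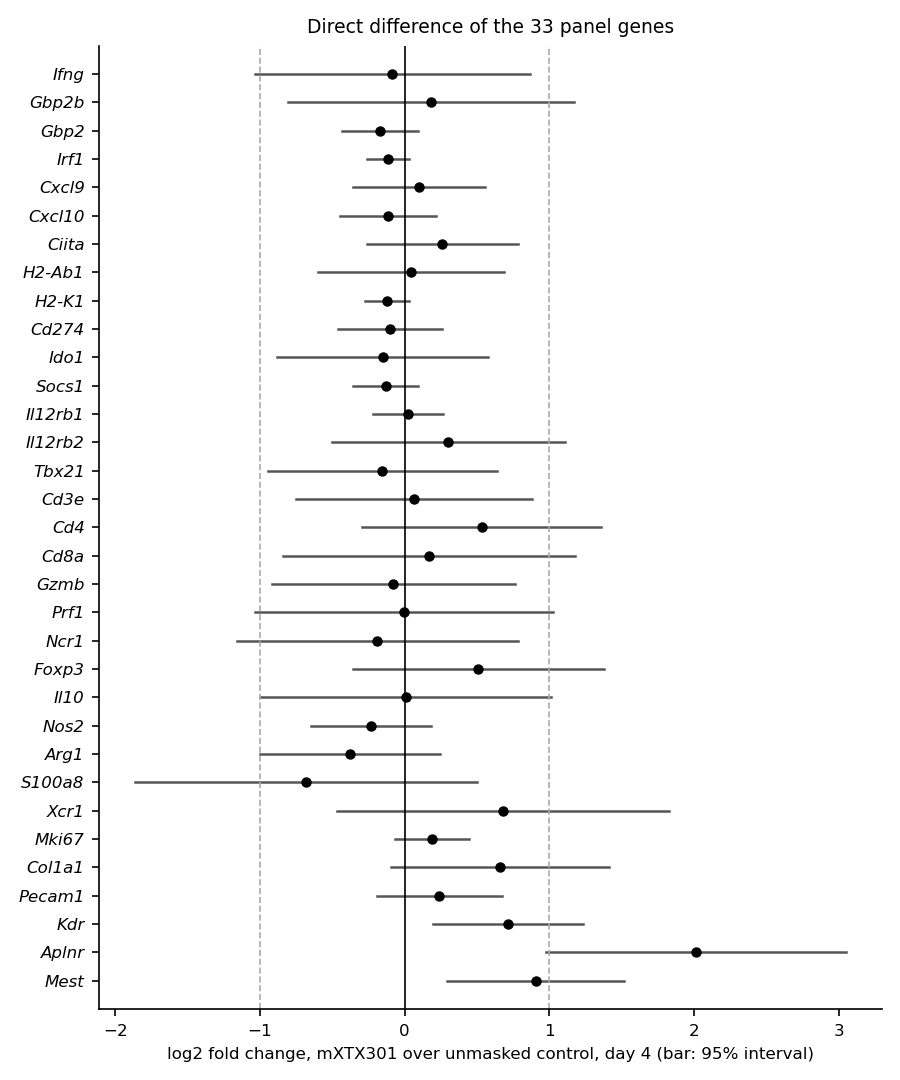
Direct difference of the 33 panel genes at day 4 as log2 fold change, mXTX301 over unmasked control (points), with 95% intervals from the edgeR fit (bars); dashed lines mark 2-fold. Most intervals cross 0, and Aplnr lies farthest from it at 2.02.

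Interferon-gamma itself was not separated between the drugs, within wide limits. Ifng, the cytokine gene, had 2.47, 3.44, 10.9, 3.46 and 5.59 CPM in the mXTX301 tumours, against 3.92, 8.78, 4.54, 3.68 and 6.50 CPM in the unmasked tumours and 0.0348 to 0.569 CPM in the vehicle tumours. The drug groups overlapped, both lay wholly above vehicle, and mXTX301 replicate 3 held the highest value. The log2 fold change between the drugs was -0.08 (95% interval -1.03 to 0.86), and -0.49 without the libraries rich in skin genes, so differences of up to about 2-fold either way were not resolved. Against vehicle, Ifng rose 20.6-fold with mXTX301 (edgeR adjusted p = 3.78e-06) and 21.8-fold with the unmasked control (adjusted p = 3.05e-06).

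The receptor chains did not pass the test between the drugs. Il12rb1, the shared receptor chain, had 121, 95.4, 124, 118 and 117 CPM with mXTX301 and 120, 139, 106, 110 and 92.5 CPM with the unmasked control, against 34.3 to 53.7 CPM in vehicle tumours. Its log2 fold change between the drugs was 0.02 (-0.22 to 0.27). Il12rb2, the chain that confers signalling, had 1.44, 1.43, 4.90, 1.97 and 2.58 CPM with mXTX301 and 2.99, 1.48, 0.990, 2.29 and 2.27 CPM with the unmasked control, against 0.142 to 0.314 CPM in vehicle tumours. The difference was 0.30 on the log2 scale (-0.50 to 1.11), or -0.0643 without the libraries rich in skin genes, and the gene rose over vehicle 10.8-fold with mXTX301 and 8.75-fold with the unmasked control. Among the 17 genes of IL-12 and IL-18 signalling, the median log2 fold change between the drugs was 0.05, with 11 positive and 6 negative. The drug groups overlapped in all 17. Of the 17, 3 had an unadjusted p under 0.05 in the direction of higher with mXTX301. Against vehicle, 12 rose and 2 fell with mXTX301, where 8 rose and 1 fell with the unmasked control. Of all genes, 16.2% rose and 16.0% fell with mXTX301 and 11.6% rose and 10.8% fell with the unmasked control, so the counts that fell are no higher than the background.

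Il18 and Tyk2 were 2 of these 3. Il18, a cytokine that acts with IL-12 to induce interferon-gamma, had 1.59, 3.66, 3.25, 2.63 and 3.29 CPM with mXTX301, against 1.47, 1.52, 1.96, 1.23 and 2.27 CPM with the unmasked control and 1.05 to 1.40 CPM in vehicle tumours. The log2 fold change was 0.77 (0.23 to 1.31; adjusted p = 0.269). Il18 rose 2.37-fold over vehicle with mXTX301 (adjusted p = 0.000976) and stood at 1.39-fold with the unmasked control (adjusted p = 0.203). Tyk2, the kinase bound to the receptor, had 24, 30.7, 40.9, 27.9 and 31.6 CPM with mXTX301, against 25.7, 27.0, 19.6, 24 and 26.8 CPM with the unmasked control and 16.8 to 21.0 CPM in vehicle tumours. The drug groups overlapped, and the log2 fold change was 0.33 (0.04 to 0.63; adjusted p = 0.330). Il18bp, which encodes the secreted inhibitor of IL-18, was at -0.06 (-0.45 to 0.34) between the drugs and rose over vehicle 3.05-fold with mXTX301 and 3.17-fold with the unmasked control.

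**Figure D2:**
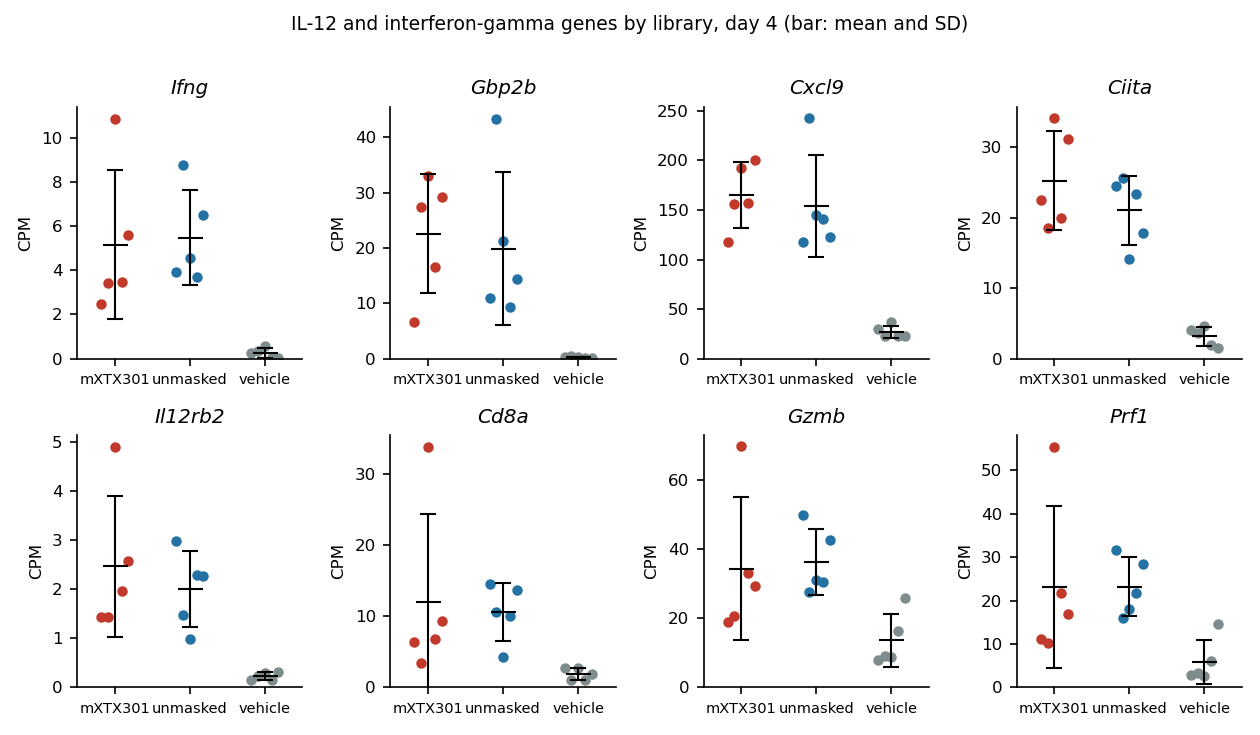
Level in CPM of 8 IL-12 and interferon-gamma genes in each day 4 library (points; 5 per group) with mean and SD (bars), for mXTX301, unmasked control and vehicle. The drug groups overlap in each of the 8 genes, and mXTX301 replicate 3 is the highest library for Ifng at 10.9 CPM and Cd8a at 33.7 CPM.

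Genes induced by interferon-gamma differed strongly from vehicle, and between the drugs their intervals lay mostly within 2-fold. Of 28 tested genes of the interferon-gamma response, 14 had a positive and 14 a negative log2 fold change, the median was -0.02 (-0.11 without the libraries rich in skin genes) against 0.01 over all genes, and the interval lay within 2-fold for 27. Against vehicle, 23 of the 28 rose with mXTX301 and 22 with the unmasked control, where 16.2% and 11.6% of all genes rose. All 17 tested interferon-inducible GTPases rose over vehicle with either drug, the median between the drugs was 0.00 (-0.11 without the libraries rich in skin genes), and 15 of the 17 had an interval within 1.5-fold. These families include near-identical copies, so the split of reads among members is uncertain.

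Gbp2b, a guanylate-binding protein gene and the steepest of the panel against vehicle, had 6.66, 27.5, 33.1, 16.6 and 29.2 CPM with mXTX301, against 11, 43.4, 21.3, 9.42 and 14.4 CPM with the unmasked control and 0.126 to 0.457 CPM in vehicle tumours. Libraries within a drug spanned several-fold, and the log2 fold change between the drugs was 0.18 (-0.81 to 1.17), and -0.10 without the libraries rich in skin genes. It rose 87.7-fold with mXTX301 and 77.4-fold with the unmasked control. Gbp2 was tighter, with 985, 792, 1206, 1051 and 1144 CPM with mXTX301, against 1139, 1357, 1006, 1326 and 997 CPM with the unmasked control and 224 to 307 CPM in vehicle tumours. Its log2 fold change was -0.17 (-0.43 to 0.09).

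The transcription factor gene Irf1 and the feedback gene Socs1 were bounded closely. Irf1 had 708, 661, 721, 685 and 680 CPM with mXTX301, against 648, 782, 813, 812 and 686 CPM with the unmasked control and 310 to 377 CPM in vehicle tumours. Its log2 fold change was -0.11 (-0.26 to 0.03). Socs1 was at -0.13 (-0.36 to 0.09). Chemokine and checkpoint genes followed: Cxcl9, which draws activated T cells, was at 0.10 (-0.36 to 0.55), Cxcl10 at -0.12 (-0.44 to 0.21), Cd274, which encodes PD-L1, at -0.10 (-0.46 to 0.26), and Ido1, a tryptophan-degrading enzyme gene, at -0.15 (-0.88 to 0.58). Nos2 and Arg1, which encode arginine-using enzymes of myeloid cells, were at -0.23 (-0.65 to 0.18) and -0.38 (-0.998 to 0.24).

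MHC class I genes leaned lower with mXTX301 by small amounts. Of 18 tested members of class I presentation, 16 had a negative log2 fold change, 5 had an unadjusted p under 0.05 and 0 passed the adjusted test, with a median of -0.11. In 4 of the 18 all mXTX301 libraries lay below all unmasked libraries (22.2%, against 3.44% of all genes). Against vehicle, 13 rose with mXTX301 and 15 with the unmasked control (72.2% and 83.3%, against 16.2% and 11.6% of all genes). Psmb10, an immunoproteasome subunit, had 488, 431, 476, 460 and 446 CPM with mXTX301, against 564, 509, 542, 556 and 522 CPM with the unmasked control and 374 to 499 CPM in vehicle tumours. The drug groups did not overlap, at -0.23 (-0.37 to -0.08; adjusted p = 0.252), and Psmb10 stood at 1.09-fold of vehicle with mXTX301 (adjusted p = 0.172) and rose 1.28-fold with the unmasked control. Tap1, a subunit of the peptide transporter, had 649 to 720 CPM with mXTX301 and 749 to 805 CPM with the unmasked control, against 371 to 507 CPM in vehicle tumours, and rose over vehicle 1.63-fold with mXTX301 and 1.80-fold with the unmasked control.
Tapbp, which encodes the chaperone tapasin, and Psme2, a proteasome activator subunit, were the other members without overlap, at -0.15 (-0.28 to -0.03) and -0.13 (-0.24 to -0.02). The mXTX301 libraries shared a trend on transcript length, described below. With an offset that removes it, Psmb10 was at -0.20, Tapbp at -0.11, Psme2 at -0.08 and Tap1 at -0.18. Nlrc5, the transactivator of class I genes, was at 0.34 (-0.01 to 0.69) and rose 2.08-fold with mXTX301 and 1.64-fold with the unmasked control. Class II genes had a median of 0.01 over 13 members (-0.18 without the libraries rich in skin genes), and Ciita, their master regulator, had 22.5, 18.6, 34.1, 19.9 and 31.2 CPM with mXTX301, against 24.4, 25.7, 14.2, 23.3 and 17.8 CPM with the unmasked control and 1.45 to 4.64 CPM in vehicle tumours.

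Genes of T cells, NK cells and killing rose over vehicle with either drug, and between the drugs their limits were wide. The median log2 fold change was -0.02 over 19 T cell genes, -0.07 over 16 cytotoxic effectors and -0.04 over 12 NK cell genes, with 0 of them at an unadjusted p under 0.05 in the edgeR fit, and 0 called by DESeq2 or by edgeR on 10 libraries. Only 2 of the T cell, 2 of the cytotoxic and 1 of the NK cell genes had an interval within 1.5-fold. Over vehicle, 14 T cell, 11 cytotoxic and 10 NK cell genes rose with mXTX301, and 13, 11 and 10 with the unmasked control, where 16.2% of all genes rose with mXTX301 and 11.6% with the unmasked control.

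Library mXTX301 replicate 3, which was rich in skin genes, led all 3 lists. Cd8a, the cytotoxic T cell co-receptor, had 6.33, 3.40, 33.7, 6.83 and 9.36 CPM with mXTX301, against 14.5, 10.5, 4.27, 10.0 and 13.7 CPM with the unmasked control and 1.01 to 2.77 CPM in vehicle tumours. The log2 fold change of Cd8a was 0.17 (-0.84 to 1.18) with all libraries, and -0.61 without the libraries rich in skin genes. Prf1, which encodes perforin, had 11.1, 10.3, 55.3, 21.7 and 16.9 CPM with mXTX301, against 31.7, 15.9, 18, 21.8 and 28.5 CPM with the unmasked control and 2.61 to 14.6 CPM in vehicle tumours. Without the libraries rich in skin genes the list medians were -0.42 for T cells, -0.50 for cytotoxic effectors and -0.36 for NK cells. No gene was called between the drugs with these libraries left out, and the part of skin in the immune signal of replicate 3 was not tested.

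The other lymphocyte genes gave no call. Gzmb, which encodes granzyme B, was at -0.08 (-0.92 to 0.76), Tbx21, the T-helper 1 transcription factor gene, at -0.15 (-0.95 to 0.64), and Ncr1, an NK cell receptor gene, at -0.19 (-1.16 to 0.78). Without the libraries rich in skin genes Gzmb was at -0.45 and Tbx21 at -0.65. Klrc1, which encodes the inhibitory NK receptor NKG2A, had 3.32, 3.22, 16.5, 3.88 and 4.79 CPM with mXTX301, against 9.82, 5.60, 3.78, 7.37 and 8.96 CPM with the unmasked control and 0.503 to 2.86 CPM in vehicle tumours. Replicate 3 was again the highest mXTX301 library, and the drug groups overlapped. The log2 fold change of Klrc1 was -0.16 with all libraries and -0.81 without the libraries rich in skin genes. Foxp3, the regulatory T cell factor, was at 0.51 (-0.36 to 1.37), and it did not pass the test against vehicle with either drug.

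Genes of type I interferon leaned higher with mXTX301. Of 21 tested members, 19 had a positive log2 fold change between the drugs and 7 an unadjusted p under 0.05, all 7 higher with mXTX301, with a median of 0.27 (0.32 without the libraries rich in skin genes). In 4 of the 21 (19%, against 2.40% of all genes) all mXTX301 libraries lay above all unmasked libraries. None passed the adjusted test with edgeR or DESeq2. Against vehicle no member rose with either drug, 4 fell with mXTX301 (19%, near the 16.0% of all genes that fell) and 9 fell with the unmasked control (42.9%, against 10.8% of all genes).

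Mx1, an antiviral GTPase gene, had 96.0, 95.3, 86.3, 85.4 and 71.9 CPM with mXTX301, against 68.6, 36.0, 60.9, 56.7 and 55.0 CPM with the unmasked control and 118, 105, 109, 126 and 59.4 CPM with vehicle. The mXTX301 libraries lay above the unmasked libraries without overlap, and vehicle replicate 5 fell among the unmasked values. The log2 fold change was 0.65 (0.20 to 1.10; adjusted p = 0.266), and Mx1 stood at 0.840-fold of vehicle with mXTX301 (adjusted p = 0.407) and fell to 0.536-fold with the unmasked control (adjusted p = 0.00401). Oas2, which senses double-stranded RNA, had 131, 134, 134, 154 and 137 CPM with mXTX301, against 127, 65.4, 82.6, 67.2 and 84.4 CPM with the unmasked control and 62.1 to 167 CPM in vehicle tumours, a log2 fold change of 0.69 (0.20 to 1.18; adjusted p = 0.269). Mx2, a relative of Mx1, was at 0.68 (0.13 to 1.23), Ddx58, which encodes the RNA sensor RIG-I, at 0.37 (0.10 to 0.64), and Irf9, a subunit of the type I interferon transcription complex, at 0.18 (0.05 to 0.31). Isg15, a ubiquitin-like modifier, was at 0.21 (-0.13 to 0.54) and fell against vehicle with both drugs, to 0.720-fold with mXTX301 and 0.624-fold with the unmasked control.

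Myeloid genes held several differences of intermediate size. Of 13 monocyte genes, 13 had a positive log2 fold change, with a median of 0.33 (0.42 without the libraries rich in skin genes). Ccr2, the receptor that brings monocytes from the blood, had 21.3, 48.9, 24.9, 21.0 and 31.0 CPM with mXTX301, against 17.9, 12.6, 15.6, 15.2 and 19 CPM with the unmasked control and 17.7 to 30.7 CPM in vehicle tumours. The drug groups did not overlap, at 0.88 (0.31 to 1.44; adjusted p = 0.255), although Ccr2 passed the test against vehicle with neither drug. Ly6c2, a marker of inflammatory monocytes, was at 0.69 (0.14 to 1.24) and rose 1.64-fold over vehicle with mXTX301 (adjusted p = 0.0443), against 1.02-fold with the unmasked control (adjusted p = 0.964).

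Conventional dendritic cell genes had a median of 0.36 over 15 members, which was 0.13 without the libraries rich in skin genes. Clec9a, a receptor of cross-presenting dendritic cells, had 0.577, 0.938, 1.45, 0.371 and 0.749 CPM with mXTX301, against 0.279, 0.502, 0.126, 0.189 and 0.352 CPM with the unmasked control and 0.0348 to 0.129 CPM in vehicle tumours. The ranges overlapped only between 0.371 and 0.502 CPM, and the log2 fold change was 1.48 (0.50 to 2.46; adjusted p = 0.255). Clec9a rose 9.75-fold over vehicle with mXTX301 and 3.49-fold with the unmasked control. Xcr1, the chemokine receptor of the same cells, was at 0.68 (-0.47 to 1.83), and at 0.0459 without those libraries.

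Resident and scavenging macrophage genes had a median of 0.54 over 18 members, 0.39 without the libraries rich in skin genes, and their level split the libraries within each drug. Mrc1, the mannose receptor of such macrophages, had 10.2, 40.4, 37.9, 43.3 and 47.7 CPM with mXTX301, against 12, 53.5, 34.1, 9.66 and 14.7 CPM with the unmasked control and 9.99 to 33.9 CPM in vehicle tumours. The low libraries, at or below 14.7 CPM, were mXTX301 replicate 1, unmasked replicates 1, 4 and 5 and vehicle replicates 4 and 5, and the log2 fold change was 0.53 (-0.74 to 1.81). Nlrp1b, an inflammasome sensor of myeloid cells, had 3.11, 6.6, 14.0, 4.1 and 7.65 CPM with mXTX301, against 3.50, 4.80, 1.55, 2.89 and 3.71 CPM with the unmasked control and 0.523 to 1.84 CPM in vehicle tumours. It rose 5.28-fold with mXTX301 and 2.45-fold with the unmasked control, and was at 1.11 (0.29 to 1.92; adjusted p = 0.278) between them, or 0.74 without the libraries rich in skin genes.

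Neutrophil genes had a median of -0.29 over 14 members, which was -0.04 without the libraries rich in skin genes. Of the 14, 5 were positive, and 1 had an unadjusted p under 0.05, lower with mXTX301. Cxcl3, Mmp12 and Slpi, given next, are not members of that list. The acute inflammatory cytokine list had a median of 0.10 over 16 members, 10 of them positive, with a lowest value of -1.30. Matrix metalloproteinase genes had a median of 0.01 over 14 members, 8 of them positive, with a lowest value of -0.70. Each of these 2 lists had 1 member at an unadjusted p under 0.05, lower with mXTX301. Cxcl3, a neutrophil-attracting chemokine gene, had 1.15, 0.699, 1.76, 1.79 and 2.04 CPM with mXTX301, against 2.31, 5.37, 3.87, 2.23 and 4.58 CPM with the unmasked control and 0.290 to 1.34 CPM in vehicle tumours. The drug groups did not overlap, at -1.30 (-2.36 to -0.24; adjusted p = 0.302), and Cxcl3 stood at 1.68-fold of vehicle with mXTX301 (adjusted p = 0.293) and rose 4.13-fold with the unmasked control (adjusted p = 0.00652). Mmp12, the macrophage elastase gene, had 25.3, 17.3, 34.5, 42.3 and 33.7 CPM with mXTX301, against 50.4, 64.2, 37.7, 46.3 and 50.9 CPM with the unmasked control and 6.87 to 13.4 CPM in vehicle tumours. It rose over vehicle 2.83-fold with mXTX301 and 4.62-fold with the unmasked control, with -0.70 (-1.34 to -0.07; adjusted p = 0.331) between the drugs. Slpi, which encodes a secreted inhibitor of neutrophil proteases, was at -1.13 (-2.09 to -0.16). Retnlg, a neutrophil gene under 1 CPM in all 10 libraries, was at -1.78 (-2.91 to -0.64), again without overlap.

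Vessel genes were among those that differed by at least 2-fold between the drugs without overlap. At least 2-fold, with an unadjusted p under 0.05 and a mean of at least 1 CPM, were 36 genes, 18 higher and 18 lower with mXTX301, and the groups did not overlap in 5 of the higher (Aplnr, Tek, Pcdh12, Ednra and Prrt2) and 2 of the lower (Cxcl3 and Nqo1). Aplnr was in the panel, Prrt2 was named for its small p, and the others were named after their values were seen. The panel was itself chosen with earlier results of these data known. Aplnr, Tek and Pcdh12 belong to endothelium and Ednra to the mural cells around vessels.

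Aplnr, the apelin receptor of sprouting endothelium, had 1.55, 1.73, 3.79, 0.860 and 3.22 CPM with mXTX301, against 0.669, 0.287, 0.432, 0.647 and 0.739 CPM with the unmasked control and 8.07, 7.22, 12.6, 5.56 and 3.99 CPM with vehicle. The 3 groups did not overlap, and mXTX301 lay between. The log2 fold change between the drugs was 2.02 (0.98 to 3.05), a 4.04-fold difference with an edgeR adjusted p of 0.251, a DESeq2 adjusted p of 0.0331 and an adjusted p of 0.0453 in the fit of 10 libraries. Leaving out each library in turn kept it between 1.73 and 2.22, and it was 1.86 without the libraries rich in skin genes. Against vehicle Aplnr fell to 0.299-fold with mXTX301 (adjusted p = 0.00702) and to 0.0739-fold with the unmasked control (adjusted p = 1.72e-05).

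Kdr, which encodes the main receptor for vascular endothelial growth factor, had 9.45, 9.75, 16.0, 9.45 and 11.5 CPM with mXTX301, against 8.18, 5.43, 6.08, 6.69 and 7.87 CPM with the unmasked control and 11.7 to 24.4 CPM in vehicle tumours. The drug groups did not overlap, at 0.71 (0.19 to 1.23; adjusted p = 0.276), and Kdr fell against vehicle to 0.613-fold with mXTX301 and 0.374-fold with the unmasked control. Pcdh12, an endothelial protocadherin gene, had 1.92, 1.31, 1.76, 1.08 and 0.854 CPM with mXTX301, against 0.818, 0.347, 0.630, 0.663 and 0.827 CPM with the unmasked control and 2.79 to 3.89 CPM in vehicle tumours. It was at 1.08 (0.46 to 1.69; adjusted p = 0.251). Tek, the angiopoietin receptor gene, had 1.73, 2.43, 3.47, 1.55 and 2.44 CPM with mXTX301, against 0.651, 1.41, 1.39, 0.915 and 0.616 CPM with the unmasked control and 2.84 to 5.80 CPM in vehicle tumours. Tek stood at 0.616-fold of vehicle with mXTX301 (adjusted p = 0.265) and fell to 0.265-fold with the unmasked control (adjusted p = 0.00512).

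Over the whole list of 20 endothelial genes, 18 were positive, 3 had an unadjusted p under 0.05 and the median was 0.25, which was 0.09 without the libraries rich in skin genes. Against vehicle 7 of the 20 fell with mXTX301 (16.0% of all genes did) and 13 with the unmasked control (10.8% of all genes). Pecam1, a general endothelial adhesion gene, was at 0.24 (-0.19 to 0.67) and passed the test against vehicle with neither drug. Among 25 genes of angiogenic sprouting, 6 had an unadjusted p under 0.05, all 6 higher with mXTX301, and the median was 0.19, against 0.09 without the libraries rich in skin genes. Flt1 and Nrp1, a decoy receptor and a co-receptor of vascular endothelial growth factor, were at 0.40 (0.04 to 0.77) and 0.39 (0.11 to 0.66). Vegfa, the growth factor itself, was at 0.30 (0.06 to 0.54).

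**Figure D3:**
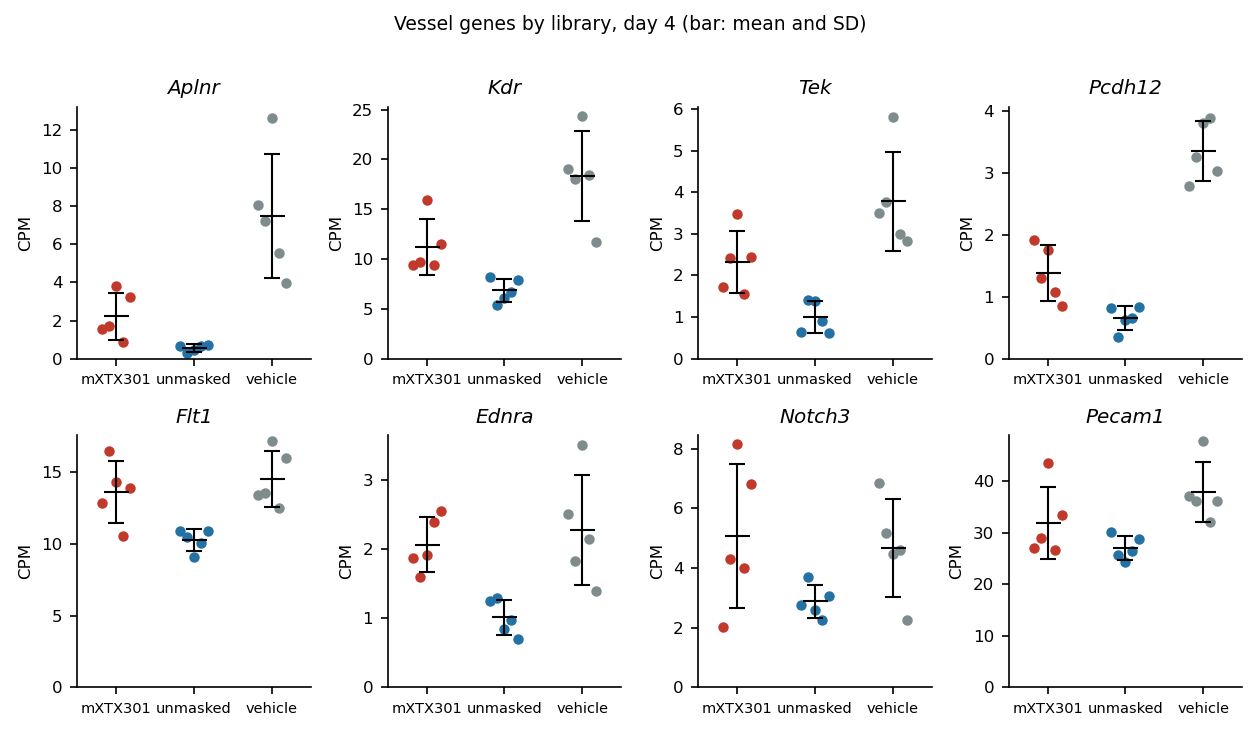
Level in CPM of 8 vessel genes in each day 4 library (points; 5 per group) with mean and SD (bars), for mXTX301, unmasked control and vehicle. Aplnr, Kdr, Tek, Pcdh12 and Ednra show no overlap between the drugs, and in each gene but Notch3 the mXTX301 mean lies between those of the unmasked control and vehicle.

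Mural cell and matrix genes leaned the same way. Ednra, an endothelin receptor gene, had 1.88, 1.60, 1.92, 2.40 and 2.54 CPM with mXTX301, against 1.25, 1.29, 0.846, 0.979 and 0.704 CPM with the unmasked control and 1.39 to 3.51 CPM in vehicle tumours. It was at 1.03 (0.51 to 1.54), with an edgeR adjusted p of 0.251 and a DESeq2 adjusted p of 0.0414, and it stood at 0.908-fold of vehicle with mXTX301 (adjusted p = 0.711) and fell to 0.446-fold with the unmasked control (adjusted p = 0.00145). Pericyte and smooth muscle genes had a median of 0.44 over 14 members (0.24 without the libraries rich in skin genes), with 3 at an unadjusted p under 0.05. Fibroblast and collagen genes were positive in 18 of 19 members, with a median of 0.48 (0.35 without the libraries rich in skin genes). Only 1 of the 19 had an unadjusted p under 0.05, where 6.34% of all genes did in that direction. The list level overlapped between the drugs, at 7.11 to 7.56 with mXTX301 and 6.52 to 7.46 with the unmasked control (mean log2 CPM). Of the 19, 0 rose or fell against vehicle with mXTX301, while 4 fell with the unmasked control, where 10.8% of all genes fell. Col1a1, the main fibrillar collagen gene, had 670, 801, 795, 785 and 836 CPM with mXTX301, against 215, 916, 592, 442 and 294 CPM with the unmasked control and 421 to 999 CPM in vehicle tumours. The unmasked libraries spread widely, and the log2 fold change was 0.66 (-0.09 to 1.41). Mest, an imprinted growth gene, had 5.53, 2.81, 4.11, 2.72 and 1.27 CPM with mXTX301, against 2.03, 1.09, 1.35, 2.40 and 1.92 CPM with the unmasked control and 17.9 to 23.1 CPM in vehicle tumours, and was at 0.91 (0.29 to 1.52; adjusted p = 0.263). Mest fell to 0.159-fold of vehicle with mXTX301 and to 0.0849-fold with the unmasked control.

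**Figure D4:**
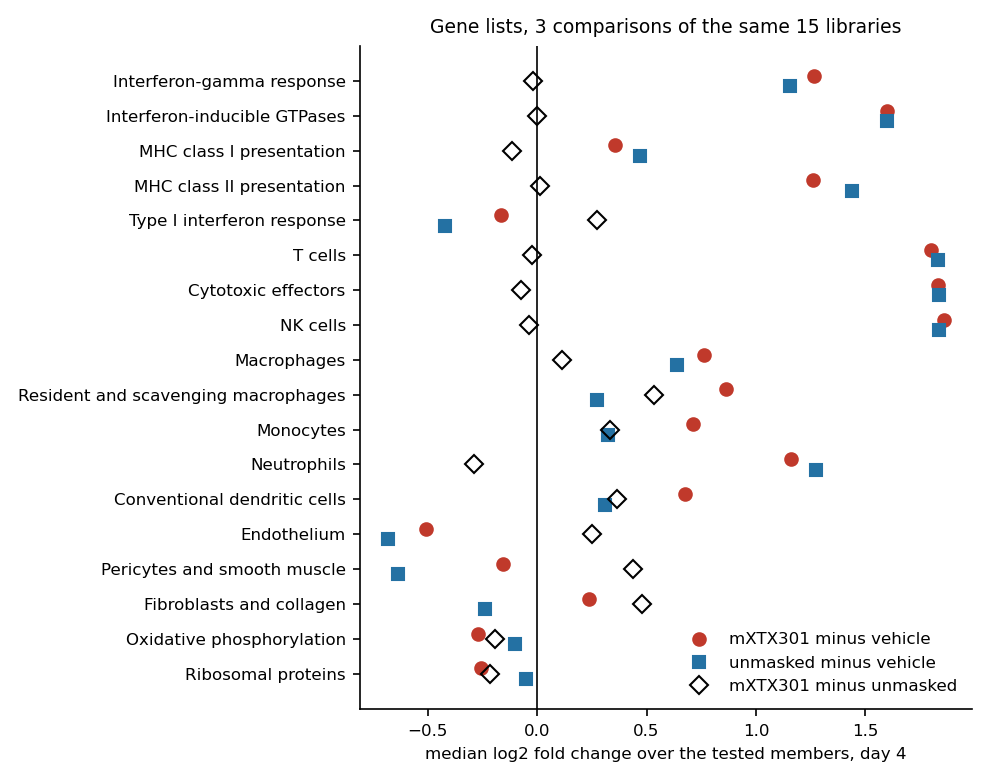
Median log2 fold change over the tested members of 18 gene lists at day 4, for mXTX301 minus vehicle (circles), unmasked control minus vehicle (squares) and mXTX301 minus unmasked control (open diamonds). The interferon-gamma, T cell and NK cell lists lie far above vehicle with either drug and near 0 between the drugs. The fibroblast list is at 0.48 between the drugs, with 1 of its 19 members at an unadjusted p under 0.05 in the edgeR fit.

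Oxidative phosphorylation and ribosomal protein genes had small and uniform negative differences between the drugs. All 23 tested members of oxidative phosphorylation had a negative log2 fold change between the drugs, with a median of -0.19 and a range of -0.35 to -0.08, and 13 had an unadjusted p under 0.05. In 8 of the 23 (34.8%, against 3.44% of all genes) all mXTX301 libraries lay below all unmasked libraries. All 28 ribosomal protein genes of the list were negative, with a median of -0.22, and 20 had an unadjusted p under 0.05. The drug groups overlapped in all 28. None of either list passed the adjusted test in the fit of 30 libraries. The fit of 10 libraries called 4 of the 23 lower and 0 of the 28 (0.733% of all genes were called lower in that fit). Rpl41 and Rps28, ribosomal protein genes outside the list, were called lower in that fit. Against vehicle, 19 oxidative phosphorylation and 17 ribosomal protein genes fell with mXTX301, where 16.0% of all genes fell, and 1 of each list with the unmasked control, where 10.8% fell.

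Uqcrq, a subunit of respiratory complex III, had 127, 139, 125, 134 and 138 CPM with mXTX301, against 163, 177, 180, 160 and 168 CPM with the unmasked control and 157 to 284 CPM in vehicle tumours. The drug groups were well apart, at -0.35 (-0.58 to -0.13), with an adjusted p of 0.255 in the fit of 30 libraries and 0.0373 in the fit of 10. Ndufa2, a complex I subunit, had 33.9, 36.2, 39.7, 35.0 and 36.6 CPM with mXTX301, against 44.4, 48.4, 46.3, 39.7 and 46.0 CPM with the unmasked control and 38.3 to 59.5 CPM in vehicle tumours. It was at -0.31 (-0.48 to -0.14), with an adjusted p of 0.251. Rpl18, a ribosomal protein gene, had 651 to 767 CPM with mXTX301 and 763 to 955 CPM with the unmasked control, against 805 to 1302 CPM in vehicle tumours.

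A trend on transcript length moved with these lists. Over 10774 genes, the deviation of a library from the mean of the day 4 libraries correlated with log2 transcript length with a Spearman's rho of 0.192 to 0.297 in the mXTX301 libraries, -0.0768 to 0.165 in the unmasked libraries and -0.327 to 0.0196 in the vehicle libraries. These rho values are descriptions across genes that share a library. The median log2 fold change between the drugs ran from -0.04 in the quintile of genes with the shortest transcripts to 0.07 in that with the longest, and the median transcript was 568 bases for oxidative phosphorylation and 651 bases for ribosomal proteins, against 1452 bases for all genes tested. With an offset that removes each library's trend on length, chosen after seeing the data, the list medians were -0.15 for oxidative phosphorylation and -0.17 for ribosomal proteins, and 0 genes were called higher and 1 lower (Riox1).

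**Figure D5:**
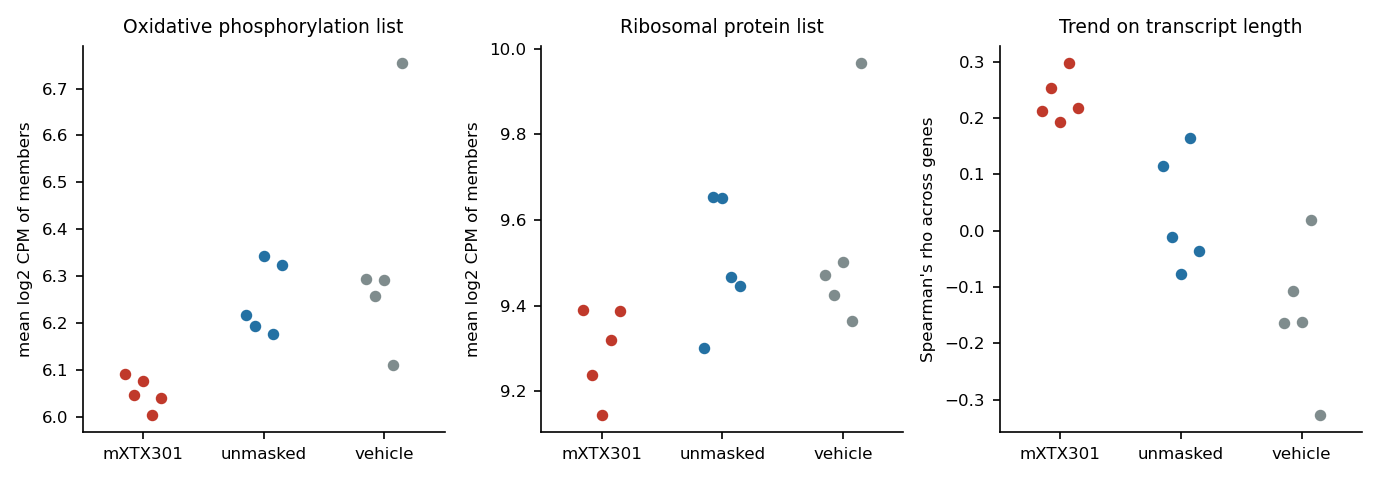
List level (mean log2 CPM of tested members) of oxidative phosphorylation and of ribosomal proteins in each day 4 library, and Spearman's rho across genes between each library's deviation and log2 transcript length. In the length trend the mXTX301 libraries, at 0.192 to 0.297, lie above all unmasked libraries, at -0.0768 to 0.165.

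The genes with the smallest p each way were named although none passed the edgeR test. Riox1, which encodes a nucleolar histone and ribosome hydroxylase, had 25.7, 24, 25.6, 23.4 and 26.1 CPM with mXTX301, against 30.5, 31.0, 31.0, 30.3 and 31.1 CPM with the unmasked control and 24.5 to 30.2 CPM in vehicle tumours. The groups were apart by a small step of -0.30 (-0.41 to -0.19), with an adjusted p of 0.0954 by edgeR and 0.000245 by DESeq2. Txnrd1, a thioredoxin reductase gene, had 267 to 302 CPM with mXTX301 and 327 to 361 CPM with the unmasked control, against 281 to 337 CPM in vehicle tumours, at -0.24 (-0.34 to -0.13). Tprn, the taperin gene, was at -0.33 (-0.48 to -0.18), and Polr2j and Polr2f, which encode subunits of RNA polymerase II, were at -0.30 (-0.44 to -0.16) and -0.29 (-0.43 to -0.15). In each of these 5 genes the groups did not overlap.

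In the other direction, Rbm5, a splicing regulator gene, had 94.5, 99.97, 111, 106 and 108 CPM with mXTX301, against 91.9, 77.5, 75.4, 76.9 and 81.5 CPM with the unmasked control and 65.4 to 98.3 CPM in vehicle tumours. It was at 0.36 (0.21 to 0.51), with an edgeR adjusted p of 0.251 and a DESeq2 adjusted p of 0.00986. Supt20, a subunit gene of the SAGA coactivator, was at 0.27 (0.14 to 0.40), and Exd2, a nuclease gene, at 0.30 (0.16 to 0.45). Prrt2, a synaptic gene, had 1.94, 1.84, 2.03, 2.08 and 2.14 CPM with mXTX301, against 0.669, 1.02, 0.360, 0.663 and 0.722 CPM with the unmasked control and 0.279 to 1.79 CPM in vehicle tumours, at 1.54 (0.79 to 2.29). Kif17, a kinesin gene, rested on 1 library: mXTX301 replicate 2 had 8.63 CPM and the other 9 libraries 0.0631 to 0.380 CPM, so that its log2 fold change of 3.35 became 0.62 without that library.

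A group of genes was high in the same few libraries of different groups. Igf2bp3, an oncofetal RNA-binding protein gene, had 0.206, 0.405, 1.14, 1.10 and 0.767 CPM with mXTX301, against 4.85, 1.22, 1.04, 1.31 and 7.13 CPM with the unmasked control and 0.316, 0.183, 0.312, 0.648 and 4.98 CPM with vehicle. Unmasked replicates 1 and 5 and vehicle replicate 5 were the high libraries, and the log2 fold change between the drugs was -2.09 (-3.81 to -0.38). Wfdc2, a secreted protease inhibitor gene, and Plet1, an epithelial surface gene, had their highest 3 values in the same 3 libraries, with log2 fold changes of -2.24 (-4.37 to -0.11) for Wfdc2 and -1.60 (-2.83 to -0.37) for Plet1. Nqo1, a quinone reductase gene of the oxidative stress response, had 3.94, 3.48, 5.72, 5.53 and 4.92 CPM with mXTX301, against 14.7, 6.57, 6.61, 7.92 and 23.6 CPM with the unmasked control and 3.80, 5.01, 4.15, 6.46 and 22.3 CPM with vehicle.

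Between the drugs, proliferation genes were bounded within narrow limits. All 20 S phase genes and all 20 mitosis genes had an interval within 1.5-fold, with medians of -0.06 and -0.07. Against vehicle, 15 S phase and 11 mitosis genes fell with mXTX301 (75% and 55%, against 16.0% of all genes). With the unmasked control 8 and 5 fell (40% and 25%, against 10.8% of all genes). Mki67, the proliferation marker, was at 0.19 (-0.07 to 0.44). Cdk1, the mitotic kinase gene, was at -0.18 (-0.33 to -0.04), and fell against vehicle to 0.762-fold with mXTX301 and 0.865-fold with the unmasked control. Sesn2, a stress gene that restrains growth signalling, had 40.6, 37.8, 40.0, 43.5 and 37.3 CPM with mXTX301, against 63.7, 44.1, 49.8, 49.1 and 54.6 CPM with the unmasked control and 33.2 to 46.1 CPM in vehicle tumours. It was at -0.39 (-0.58 to -0.20), with an edgeR adjusted p of 0.251 and a DESeq2 adjusted p of 0.0414, and it stood at 1.04-fold of vehicle with mXTX301 (adjusted p = 0.656) and rose 1.37-fold with the unmasked control (adjusted p = 0.00101).

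Whether the difference between the drugs changed by day 7 was tested as the day 7 difference minus the day 4 difference. No gene passed the edgeR test (0%, smallest adjusted p 0.258), 1015 had a positive and 781 a negative change at an unadjusted p under 0.05, and DESeq2 called 7 and 5. At day 7 itself the direct comparison also gave 0 genes each way, with 5.80% of genes at an unadjusted p under 0.05, against 13.5% at day 4. Replicates 1 and 3 of mXTX301 and replicates 3 and 5 of the unmasked control were rich in skin genes at day 7. Pomp, which encodes a chaperone of proteasome assembly, had the smallest p, with a difference between the drugs of -0.23 on the log2 scale at day 4 and 0.19 at day 7, a change of 0.42 (0.24 to 0.60; edgeR adjusted p = 0.258, DESeq2 adjusted p = 0.0129). Katna1, Idnk, Usf1 and Wdr34 followed, with changes of 0.31 to 0.51. In the other direction Parp2, a DNA repair gene, and Mettl3, an RNA methyltransferase gene, had changes of -0.33 (-0.48 to -0.18) and -0.50 (-0.74 to -0.26), and Adcy7, Pcf11 and Lemd3 of -0.68, -0.39 and -0.31. The difference of Aplnr was 2.02 at day 4 and 0.73 at day 7, a change of -1.29 (-2.68 to 0.10) that did not pass the test.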

How the data were processed

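Polyadenylated RNA of bead-milled tumours was sequenced, per the labels' protocols. The deposited file holds whole-number counts per gene, not normalized, for 24557 gene entries and 30 libraries; 5 repeated symbols were dropped. The mm10 build, the aligner STAR 2.7.10a and the counter HTSeq 0.11.1 are named by the submitters' processing notes. Strandedness and counting settings are not given in the sources used here, so reads of overlapping and antisense genes cannot be told apart.

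With R 4.3.3 and edgeR 4.0.16, genes passing filterByExpr on the 6 groups (15482) were fitted with TMM factors, 1 mean per group and robust dispersions, leaving 24 residual degrees of freedom. Contrasts were adjusted over all genes by Benjamini-Hochberg and called at 0.05, and 95% intervals came from the fitted value and its F. Labels number replicates 1 to 5 within each group, taken here as separate mice. In the main fit, p-values rest on the spread between replicates pooled over all 6 groups, not on that of the compared groups alone. DESeq2 1.42.0, RLE factors, no filter, fewer libraries, a replicate block, each library left out, libraries over 10 times the median skin level left out, a skin covariate and a length offset were alternatives. The fit was also run on simulated counts with known changes as a check of the code, and its power for small differences is not given here.

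Members, 47 gene lists, a gene panel and the tests were chosen with earlier results of these data known. Named genes were the panel, called list members, the largest called changes and, where under 5 genes were called in a direction, the 5 with the smallest p; other genes in the text were chosen after their values were seen. Some genes are not reported here. Same-numbered libraries of the 2 drugs had correlations of -0.497 to 0.308 over 2000 genes, so no pairing was used. No 2 libraries held identical counts. GeneIDs of 15176 tested genes matched RefSeq.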

Additional observations from a re-analysis of the deposited data

Results flagged for a closer look

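In 338 groups of 5 libraries (each named gene or list level within each drug), a single library lay far from the other 4 in 24, its gap over 0.71 of the group's range. Chance alone gives such a gap in about 1 in 20 groups. No change of the drug difference between days passed the edgeR test, and no causes were tested.

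Library mXTX301 replicate 3 stood high for Cd3e (7.39 CPM, others 1.57 to 2.34), Klrc1 (16.5 CPM, others 3.22 to 4.79), Pdcd1, an exhaustion receptor gene (18.8 CPM, others 3.70 to 4.93), the NK cell list (mean log2 CPM 2.63, others 0.88 to 1.37), the pericyte list (3.19, others 2.52 to 2.7) and the skin list (3.55, others -2.87 to -2.24). Library mXTX301 replicate 1 stood low for Mrc1 (10.2 CPM, others 37.9 to 47.7), Abcc9, a pericyte channel subunit gene (2.52 CPM, others 4.42 to 4.83), Col3a1 (657 CPM, others 1144 to 1310), Col1a1 (670 CPM, others 785 to 836), the resident macrophage list (1.99, others 3.17 to 3.60) and the fibroblast list (7.11, others 7.47 to 7.56). The same library stood high for the S phase list (7.13, others 6.88 to 6.94) and the mitosis list (7.30, others 7.10 to 7.15). Library mXTX301 replicate 2 stood apart for Kif17 (8.63 CPM, others 0.169 to 0.380), Il12rb1 (95.4 CPM, others 117 to 124) and Usf1 (84.2 CPM, others 89.4 to 91.0), and mXTX301 replicate 4 for Oas2 (154 CPM, others 131 to 137).

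Among unmasked libraries, replicate 2 stood apart for Cxcl9 (243 CPM, others 118 to 145), Txnrd1 (361 CPM, others 327 to 334) and the skeletal muscle list (-1.33, others 2.45 to 3.44), replicate 3 for Pomp (241 CPM, others 222 to 226), and replicate 5 for the monocyte list (4.29, others 3.75 to 3.90) and the pericyte list (2.08, others 2.37 to 2.46).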

How the results depend on the processing

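With edgeR the count of genes called between the drugs was 0 higher and 0 lower under RLE factors, no low-count filter, the 15 day 4 libraries, the replicate block, the skin covariate, the libraries rich in skin genes left out, and each of the 10 libraries left out. It was 12 and 12 with DESeq2, 89 and 105 with the 10 libraries alone, 0 and 1 with the length offset, and 48 and 24 with that offset in the 10 libraries; the last 2 were added after seeing the data. Leaving out each library of the 10-library fit, also added later, gave 0 to 197 higher and 0 to 217 lower: 33 and 40 without mXTX301 replicate 1, 13 and 4 without mXTX301 replicate 3, 197 and 217 without unmasked replicate 1, 139 and 125 without unmasked replicate 2, and 0 and 0 without each of the others or without the libraries rich in skin genes. For the change between days DESeq2 called 7 and 5 and edgeR alternatives none. Genes without overlap between the groups numbered 627 and 806 without the libraries rich in skin genes, and 402 to 644 and 558 to 1007 with each library left out, as fewer libraries overlap less.

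No gene was called in the main fit, so each gene whose sign turned was uncalled. Without the libraries rich in skin genes the log2 fold change was -0.10 for Gbp2b, -0.0433 for Cxcl9, -0.18 for H2-Ab1, -0.0783 for Il12rb1, -0.0643 for Il12rb2, -0.43 for Cd3e, -0.61 for Cd8a, -0.0425 for Gbp4 and -0.66 for Pdcd1. With the replicate block, which changed no other sign or call, it was 0.0373 for Prf1, -0.00578 for Il10 and -0.0475 for Pdcd1, and Pdcd1 was at -0.0678 with the skin covariate. Leaving out each library gave ranges of -0.58 to 0.22 for Cd3e, -0.72 to 0.40 for Cd8a, -0.00638 to 0.68 for Gbp2b, -0.51 to 0.0678 for Gzmb, -0.19 to 0.22 for H2-Ab1, -0.39 to 0.10 for Ido1, -0.56 to 0.15 for Ifng, -0.22 to 0.24 for Il10, -0.0489 to 0.10 for Il12rb1, -0.11 to 0.48 for Il12rb2, -0.23 to 0.00553 for Il18bp, -0.91 to 0.00135 for Klrc1, -8.17 to 1.97 for Krt5, -0.64 to 0.11 for Ncr1, -0.74 to 0.25 for Pdcd1, -0.63 to 0.17 for Prf1 and -0.77 to 0.0373 for Tbx21. The causes were not tested. Genes under 1 CPM rest on few reads. The replicate numbers are not a pairing: same-numbered libraries correlated at 0.0465 on average, and only 9 of the 30 correlated best with a library of the same number.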

Other observations

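Imprinted growth genes had a median log2 fold change of 0.26 between the drugs over 16 tested members, with 3 higher and 1 lower at an unadjusted p under 0.05 and none called. Meg3, an imprinted long noncoding RNA, had 6.70, 18.6, 11.2, 14.8 and 26.2 CPM with mXTX301, against 2.47, 17.0, 4.75, 1.69 and 1.51 CPM with the unmasked control and 1.22 to 15.4 CPM in vehicle tumours. Rian, transcribed from the same imprinted domain, was at 1.32 (95% interval 0.08 to 2.56), with unmasked replicate 2 standing among the mXTX301 values for both genes.

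Slfn4, a myeloid gene of the Schlafen family, had 94.8, 141, 106, 74.2 and 102 CPM with mXTX301, against 65.6, 28.0, 34.8, 40.3 and 80.8 CPM with the unmasked control and 54.5 to 158 CPM in vehicle tumours. It was at 1.06 (0.44 to 1.67; edgeR adjusted p = 0.251), stood at 0.978-fold of vehicle with mXTX301 (adjusted p = 0.950) and fell to 0.471-fold with the unmasked control (adjusted p = 0.0104). Its drug difference was -0.29 at day 7, a change of -1.35 (-2.22 to -0.48). Egr1, an immediate early gene, was at 0.60 (0.11 to 1.09) and it stood at 0.781-fold of vehicle with mXTX301 (adjusted p = 0.265) and fell to 0.514-fold with the unmasked control (adjusted p = 0.00497). The list of immediate early and stress genes had a median of 0.07 over 20 members, 13 positive and 7 negative, with a lowest value of -0.80.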
